A study of Mus musculus with 18 samples.

Results

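The genes described are those of the mitochondrial route of cell death: Bcl2, Bcl2l1, Bax, Bak1, Bad, Bid, Bcl2l11, Casp9 and Apaf1. Every probe set of the mouse array that the platform annotation ties to exactly 1 of these symbols was taken, whatever its values. This gave 26 probe sets of 8 of the 9 genes, out of 45101 probe sets on the array. The annotation used here named no probe set for Bax with a single symbol, so Bax was not analysed here. There were 18 samples, each on 1 array, in 6 groups of 3. Wildtype and SOD1 mutant mice each gave RNA from tissue of the ventral spinal cord, from spinal motor neurons and from motor neurons of the facial nucleus, which lies in the brainstem. All RNA was amplified by a linear, T7-based method. The labels state neither the SOD1 allele and its promoter, nor age, sex, the way the motor neurons were collected, pooling of animals or a batch, and they leave the D60 of each sample's title unexplained. They do not tie samples to animals either, so the p-values here reflect variation among arrays that could be purely technical.

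As background, proteins of the BCL2 family decide at the outer mitochondrial membrane whether cytochrome c is released. BCL2 and BCL-XL (Bcl2l1) hold the pore-forming effectors BAX and BAK1 in check, and BH3-only proteins such as BAD, BID and BIM (Bcl2l11) act on them upstream. Released cytochrome c assembles APAF1 into the apoptosome, which activates caspase 9. Mutant SOD1 causes an inherited form of amyotrophic lateral sclerosis, in which motor neurons of the spinal cord and brainstem are lost, and members of the BCL2 family have been studied in mouse models of it.

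Levels are log2(intensity + 16) after quantile normalization over the 18 arrays, and a difference of 1 on this scale is a doubling. Groups were compared with limma over all 20967 probe sets that were bright enough in the arrays of a comparison. A probe set rose or fell where its Benjamini-Hochberg adjusted p over all of them was under 0.05, and SE is the standard error of a log2 difference with n = 3 arrays per group. The 40th percentile of all named probe sets lay at 8.10, and lower levels are close to background. Of the 26 probe sets, 14 had a mean over the 18 arrays at or above it: all 5 of Bcl2, both of Bad, 2 of the 5 of Bcl2l11, and 1 each of the 4 of Bcl2l1, the 2 of Bak1, the 3 of Bid, the 3 of Casp9 and the 2 of Apaf1. Levels of different probe sets are not set against each other, since each has its own probes. Arrays have no read depth, and the number of arrays limits the precision.

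The arrays differed in ways that run along the groups. The ratio of the 3' to the 5' actin control probe sets grows as less of a transcript's 5' end is read, whatever the cause. It ran from 1.56 to 1.78 in tissue and from 25.3 to 74.4 in motor neurons. Within the motor neurons it was lower in the mutants, with 25.3 to 39.1 against 40.9 to 56.9 in spinal neurons and 26.6 to 59.0 against 59.7 to 74.4 in facial neurons. The summed intensity of 9 motor neuron markers ranged from 27395 to 34257 in tissue, from 108286 to 153002 in spinal and from 152204 to 185886 in facial neurons. Group means of Chat and Mnx1 were under 8.10 in tissue, and that of Mnx1 also in facial neurons, but Slc5a7 was no higher in spinal neurons (9.67 and 9.94 in wildtypes and mutants) than in tissue (10.08 and 10.27). All 7 oligodendrocyte markers read were above 8.10 in every group. The summed intensity of 12 microglia markers ranged from 73412 to 79813 in wildtype and from 115116 to 131342 in mutant tissue, from 11995 to 32302 in wildtype and from 70434 to 92397 in mutant spinal neurons, and from 15815 to 33079 in wildtype and from 22127 to 25843 in mutant facial neurons. The sum of oligodendrocyte markers lay from 701781 to 789082 on tissue arrays and from 162303 to 255956 on neuron arrays and overlapped between genotypes. The sum of 8 astrocyte markers did split: it lay from 475262 to 484924 in wildtype and from 504944 to 558044 in mutant tissue, and from 149485 to 180591 and from 185549 to 195028 in spinal neurons, while facial neurons overlapped, with 159775 to 200790 and 172820 to 194694. Sod1 itself differed by 0.38 (SE 0.07, limma adjusted p = 0.0558) between mutant and wildtype tissue and rose by 0.35 (SE 0.06, adjusted p = 0.0132) over both kinds of motor neuron. All these differences run along the comparisons below, and their part in them was not tested unless a value is given.

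Across the 6 groups, the members split into those that differed between motor neurons and tissue and those that varied little. Wildtype spinal motor neurons differed from wildtype tissue in 5 of the 16 probe sets tested, against 53.7% of all probe sets: 2 were higher (28.9% of all) and 3 lower (24.8%). Wildtype facial motor neurons differed from the same tissue arrays in 8 of 14, against 63.3%: 4 were higher (34.4% of all) and 4 lower (29%). In the mutants, whose arrays are separate, spinal motor neurons differed from tissue in 8 of 14, against 63.8%: 5 were higher (34.8% of all) and 3 lower (28.9%). Arrays of neurons and tissue did not overlap in 8 of 16, 8 of 14 and 10 of 14 of the tested members, where 64.3%, 70.1% and 70% of all probe sets did not. None of these shares of members was clearly above that of all probe sets. Among those called lower, 1 in wildtype spinal neurons (Bcl2l1 1420887_a_at) and 2 in wildtype facial neurons (that one and Bcl2 1422938_at) were bright enough only through the tissue. Between genotypes none of them passed the threshold in any kind of sample. In bulk samples such as these, fewer cells of a type and less RNA per cell cannot be told apart.

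**Figure D1:**
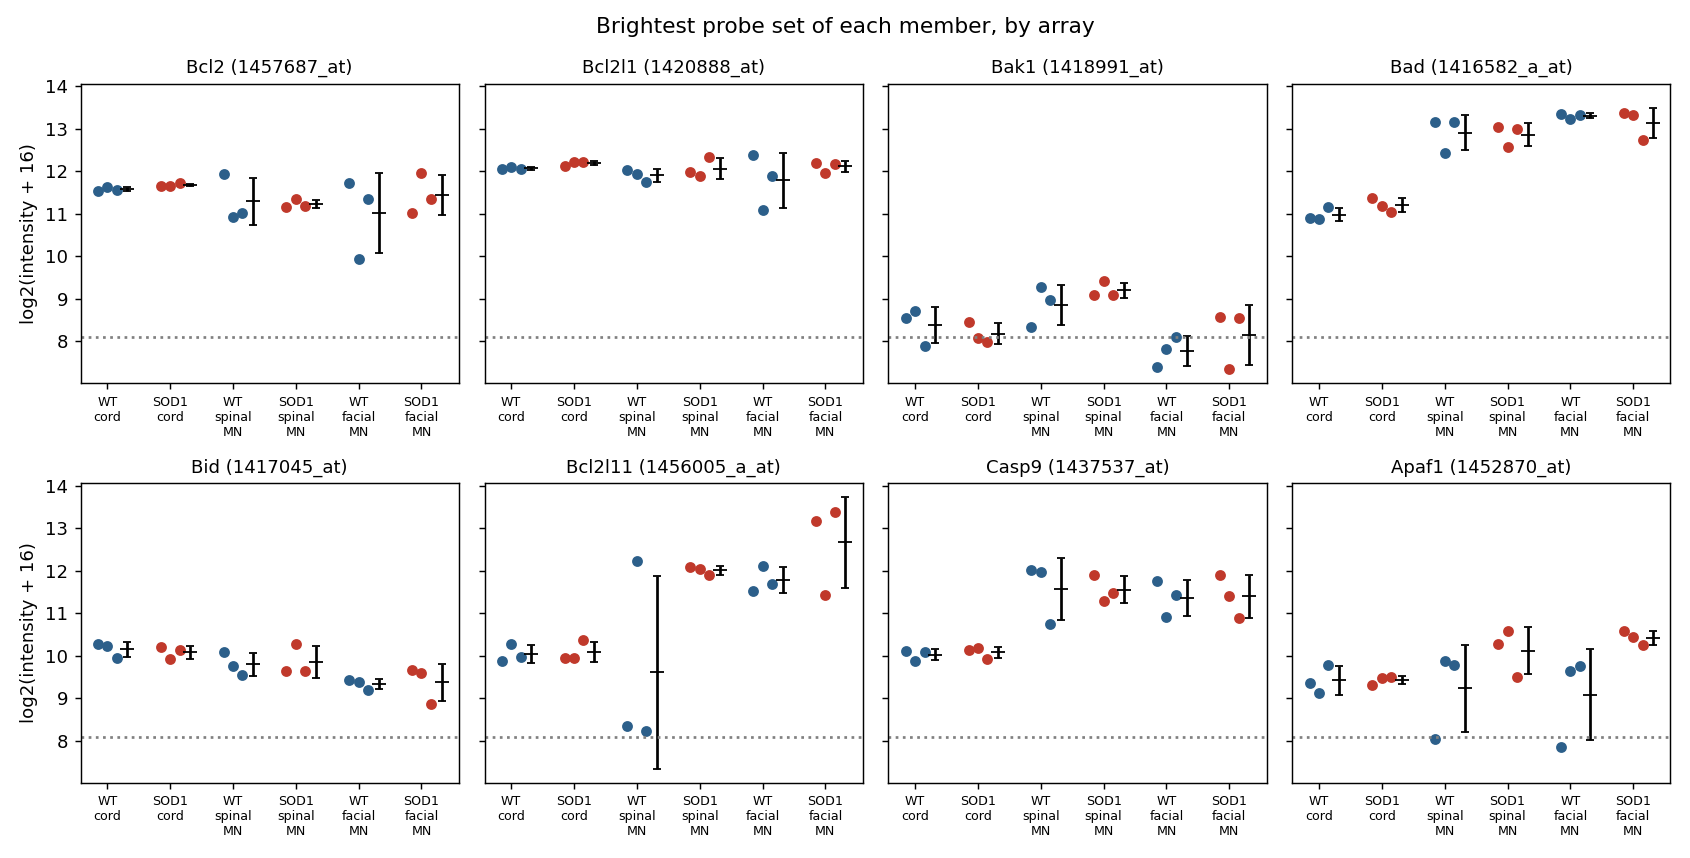
Level on the log2(intensity + 16) scale of the brightest probe set of each of the 8 members, by group; each point is 1 array, the bar beside it is the mean with SD (n = 3), and the dotted line is 8.10. Bad and Casp9 sit higher in every motor neuron group than in tissue, and Bcl2l11 has 1 wildtype spinal array at 12.22 and the other 2 at 8.36 and 8.24.

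Bcl2, the founding inhibitor of the family, was read by 5 probe sets that did not move together. The brightest, 1457687_at, read between 11.54 and 11.71 on all 6 tissue arrays. In motor neurons it read 11.92, 10.91 and 11.02 in wildtype spinal, 11.16, 11.35 and 11.18 in mutant spinal, 11.73, 9.94 and 11.35 in wildtype facial and 11.02, 11.96 and 11.35 in mutant facial samples. Its tissue arrays were tight and its neuron arrays scattered on both sides of them, except in mutant spinal neurons, where all 3 lay below the tissue. That difference of -0.45 (SE 0.14, limma adjusted p = 0.0224) was the only call of this probe set, and it was -0.04 (adjusted p = 0.811) when arrays were scaled to a common median in place of quantile normalization. The call was also lost without any 1 of the mutant tissue arrays (adjusted p between 0.0600 and 0.0903).

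A second Bcl2 probe set, 1437122_at, was lower in motor neurons throughout. It read 10.36, 10.43 and 10.54 in wildtype tissue, 8.84, 9.85 and 9.51 in wildtype spinal neurons and 9.13, 8.87 and 8.27 in wildtype facial neurons. In the mutants it read 10.28, 10.47 and 10.21 in tissue, 9.50, 9.57 and 9.68 in spinal and 8.96, 8.06 and 8.19 in facial neurons. No neuron array reached the tissue arrays of its genotype. The probe set fell by 1.04 (SE 0.32, limma adjusted p = 0.0223), or 2.06-fold, in wildtype spinal neurons, by 1.69 (SE 0.28, adjusted p = 0.00113), or 3.22-fold, in wildtype facial neurons, and by 0.73 (SE 0.21, adjusted p = 0.0111), or 1.66-fold, in mutant spinal neurons. The first of these calls was lost without any 1 of the wildtype tissue arrays (adjusted p between 0.0644 and 0.0840), and the last without the second mutant tissue array (adjusted p = 0.0584).

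The other Bcl2 probe sets were dimmer and less even. On 1422938_at wildtype tissue read 9.16, 9.70 and 9.41 and wildtype facial neurons 8.67, 5.37 and 7.37, a difference of -2.29 (SE 0.77). The facial mean is below 8.10 and the probe set passed the filter only through the tissue, so this is a description with no fold. In repeats without 1 array it was bright enough to be tested in 2 of 6, and its call (limma adjusted p = 0.0316) was lost in 1 of these 2, without the third facial array. In the spinal neurons it differed from tissue by -0.63 (SE 0.34, adjusted p = 0.148) in wildtype and -0.93 (SE 0.40, adjusted p = 0.0653) in mutant samples. Neither 1440770_at nor 1443837_x_at passed the threshold in any comparison. The first was -1.60 (SE 0.67, adjusted p = 0.0754) in wildtype spinal neurons against tissue, where its 3 arrays spread from 6.14 to 8.76. Their mean of 7.67 was under 8.10, so this difference is a description only.

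Bcl2l1, whose long product BCL-XL keeps neurons alive after they stop dividing, was read by 4 probe sets that disagreed. The brightest, 1420888_at, had the smallest range of group means of all 26 probe sets, 0.40, and read between 11.09 and 12.39 on every array. Mean levels were 12.06 ± 0.03 (SD, n = 3) in wildtype tissue, 11.90 ± 0.15 in wildtype spinal and 11.78 ± 0.65 in wildtype facial neurons. Against tissue the differences were -0.16 (95% interval -0.55 to 0.23) in wildtype spinal and -0.28 (-0.96 to 0.40) in wildtype facial neurons. These intervals allow a fall of up to 0.55 and 0.96, so they bound the difference without showing that there is none.

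In contrast, 1420887_a_at read 10.35, 10.44 and 10.57 in wildtype tissue but 5.50, 6.59 and 5.77 in wildtype spinal neurons and 6.23, 7.73 and 5.67 in wildtype facial neurons. The mutant arrays read 9.90, 10.56 and 10.66 in tissue, 6.11, 5.57 and 5.67 in spinal and 6.17, 7.73 and 6.10 in facial neurons. Every motor neuron array was below 8.10 and every tissue array well above it. It passed the brightness filter only through the tissue arrays, so its differences of -4.50 (SE 0.48) in wildtype spinal and -3.91 (SE 0.54) in wildtype facial neurons are given as a description, with no fold because the neuron level is close to background. In the mutants its mean over tissue and spinal neurons missed the brightness filter, so it was not tested there. Another probe set, 1426191_a_at, showed the same arrangement as a description only, with tissue arrays between 9.26 and 10.04 and neuron arrays between 4.50 and 8.59, and the fourth, 1426050_at, was close to background in all groups. Which stretch of the transcript each probe set reads was not analysed here, and the part of the actin ratio, which separates neurons from tissue as cleanly, was not tested.

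**Figure D2:**
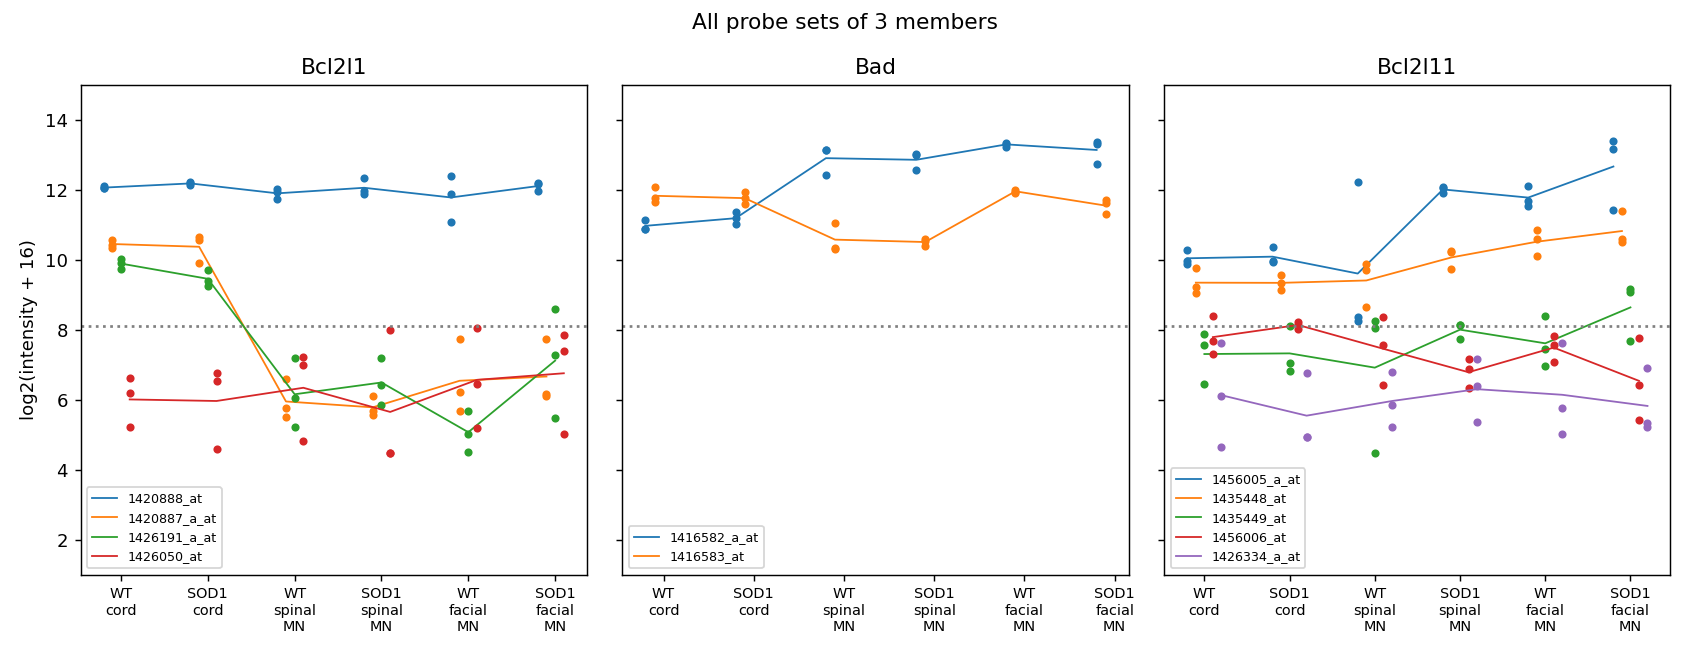
All probe sets of Bcl2l1, Bad and Bcl2l11 by group, as log2(intensity + 16); points are arrays, lines join the group means and the dotted line is 8.10. For Bcl2l1 1420888_at stays between 11.09 and 12.39 while 1420887_a_at and 1426191_a_at mostly drop below the line in motor neurons, and the 2 probe sets of Bad part in spinal neurons.

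Bak1 is the effector that forms pores together with BAX. Its brighter probe set, 1418991_at, stood not far above background, with 8.53, 8.70 and 7.89 in wildtype tissue, 8.34, 9.26 and 8.96 in wildtype spinal and 7.39, 7.81 and 8.10 in wildtype facial neurons. The mutant arrays read 8.46, 8.07 and 7.99 in tissue, 9.08, 9.41 and 9.09 in spinal and 8.57, 7.34 and 8.54 in facial neurons. The highest group means were those of the spinal neurons, and in the mutants all 3 spinal arrays lay above all 3 tissue arrays. It rose there by 1.02 (SE 0.32, limma adjusted p = 0.0191), or 2.03-fold, and the call was lost without the second or the third mutant tissue array (adjusted p = 0.0615 and 0.0764). In the wildtypes the same difference was 0.48 (SE 0.44, adjusted p = 0.385). Between spinal and facial neurons it was 1.09 (SE 0.58, adjusted p = 0.336) in wildtype and 1.04 (SE 0.51, adjusted p = 0.276) in mutant samples, and the arrays of both sites did not overlap in either genotype. The wildtype facial mean of 7.77 was under 8.10, so the wildtype difference between sites is a description only. The other probe set, 1425716_s_at, was close to background in every group.

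Bad, a BH3-only protein that binds BCL2 and BCL-XL and is silenced by survival-factor signalling, was higher in every motor neuron group than in tissue on its brighter probe set. On 1416582_a_at wildtype tissue read 10.89, 10.88 and 11.15, wildtype spinal neurons 13.15, 12.42 and 13.15, and wildtype facial neurons 13.35, 13.24 and 13.31. Mutant tissue read 11.36, 11.19 and 11.03, mutant spinal neurons 13.04, 12.56 and 12.99, and mutant facial neurons 13.37, 13.32 and 12.73. The lowest of the 12 neuron arrays was above the highest of the 6 tissue arrays. The probe set rose by 1.93 (SE 0.24, limma adjusted p = 0.000281), or 3.82-fold, in wildtype spinal neurons, by 2.33 (SE 0.13, adjusted p = 3.48e-06), or 5.02-fold, in wildtype facial neurons and by 1.67 (SE 0.17, adjusted p = 2.72e-05), or 3.18-fold, in mutant spinal neurons. It kept its call without any single array, with a difference between 1.58 and 2.42 over the 3 comparisons.

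The second Bad probe set, 1416583_at, did not follow the first. It read 11.67, 12.07 and 11.76 in wildtype tissue, 10.32, 10.35 and 11.06 in wildtype spinal and 11.95, 11.92 and 12.01 in wildtype facial neurons. In the mutants it read 11.93, 11.59 and 11.77 in tissue, 10.60, 10.39 and 10.54 in spinal and 11.63, 11.70 and 11.32 in facial neurons. All 6 spinal neuron arrays were below all 6 tissue arrays and all 6 facial arrays. It fell by 1.25 (SE 0.26, limma adjusted p = 0.00396), or 2.38-fold, in wildtype spinal neurons and by 1.25 (SE 0.17, adjusted p = 0.000145), or 2.39-fold, in mutant spinal neurons, while wildtype facial neurons differed from tissue by 0.13 (95% interval -0.21 to 0.46). It was also the only member probe set called between spinal and facial neurons, where 2.56% of all probe sets were called in wildtype (1.34% higher, 1.22% lower) and 4.39% in mutant samples (2.46% higher, 1.93% lower). It was lower in spinal neurons, with a difference of -1.38 (SE 0.27, limma adjusted p = 0.0363) in wildtype and -1.04 (SE 0.23, adjusted p = 0.0307) in mutant samples. These calls rest on all arrays together: the wildtype one was lost in 5 of 6 and the mutant one in 6 of 6 repeats without 1 array, with adjusted p up to 0.209 and 0.0912. Spinal and facial neurons did not overlap in 5 of 13 member probe sets in wildtype and 4 of 15 in mutant samples, against 27% and 25.7% of all probe sets.

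The upstream sequence of Bad, Casp9 and Bcl2l11 is shown because their brightest probe sets rose against tissue in both wildtype facial and mutant spinal neurons, a choice made after seeing their values. Each window holds the 250 bases before a transcription start from RefSeq (GRCm38.p6, mouse), in lower case, 5′ to 3′ on the strand of the gene. Capitals mark the letters GGGCGG, the core of a GC box, on either strand (CCGCCC on the other), and GTAAACA, a forkhead-type motif bound by FOXO factors, also sought on both strands. Of 32851 such windows, 32.7% held GGGCGG and 3.17% held GTAAACA.
Bad, chr19:6941611-6941860, plus strand: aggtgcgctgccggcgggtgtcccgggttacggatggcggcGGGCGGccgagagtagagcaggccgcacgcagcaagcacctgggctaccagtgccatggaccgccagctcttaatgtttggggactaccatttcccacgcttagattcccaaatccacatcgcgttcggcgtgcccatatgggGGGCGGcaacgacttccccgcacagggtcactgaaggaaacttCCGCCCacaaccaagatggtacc
Casp9, chr4:141793362-141793611, plus strand: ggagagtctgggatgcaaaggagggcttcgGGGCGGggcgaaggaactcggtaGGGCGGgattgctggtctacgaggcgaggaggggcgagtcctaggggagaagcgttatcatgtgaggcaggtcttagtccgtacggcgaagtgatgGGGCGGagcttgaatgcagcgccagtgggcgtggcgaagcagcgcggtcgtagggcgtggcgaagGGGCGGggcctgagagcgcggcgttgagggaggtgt
Bcl2l11, chr2:128125788-128126037, plus strand: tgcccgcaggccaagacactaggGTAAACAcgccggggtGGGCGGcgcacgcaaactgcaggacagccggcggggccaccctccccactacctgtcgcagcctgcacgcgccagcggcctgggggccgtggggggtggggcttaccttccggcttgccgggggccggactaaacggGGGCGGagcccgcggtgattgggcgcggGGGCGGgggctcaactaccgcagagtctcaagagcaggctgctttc
GGGCGG stood 3 times before the first start of Bad, 4 times before Casp9 and 3 times before the first start of Bcl2l11, with no overlap between motifs. The second listed start of Bad (chr19:6942312-6942561) held none and that of Bcl2l11 (chr2:128127325-128127574) held 2. GTAAACA occurred once, 227 bases before the first Bcl2l11 start, and in no other window of a member. A letter match describes this window only and is neither a binding site nor a cause.

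Bid, the BH3-only protein that links death receptors to mitochondria when cut by caspase 8, varied little on its brightest probe set. This probe set, 1417045_at, read 10.27, 10.22 and 9.96 in wildtype tissue, 10.09, 9.75 and 9.56 in wildtype spinal and 9.43, 9.38 and 9.20 in wildtype facial neurons. Only the facial arrays were all below the tissue. There it fell by 0.81 (SE 0.22, limma adjusted p = 0.0122), or 1.76-fold, and the call was lost without the first or second tissue array (adjusted p = 0.0560 and 0.0552). In spinal neurons the differences were -0.35 (SE 0.27, adjusted p = 0.290) in wildtype and -0.23 (SE 0.25, adjusted p = 0.428) in mutant samples. The mutant arrays ranged from 9.92 to 10.20 in tissue, 9.64 to 10.28 in spinal and 8.87 to 9.67 in facial neurons. The other Bid probe sets, 1448560_at and 1447873_x_at, were near or below 8.10 in all groups. As a description only, group means of 1448560_at were 8.08 in wildtype and 8.18 in mutant tissue. In motor neurons they lay between 5.24 and 6.68.

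Bcl2l11, which encodes BIM, a BH3-only protein that can bind all the inhibitors of the family, spread widely within 2 of the groups. On 1456005_a_at wildtype tissue read 9.88, 10.28 and 9.98 and mutant tissue 9.96, 9.95 and 10.37. Wildtype spinal neurons read 8.36, 12.22 and 8.24, and mutant spinal neurons 12.09, 12.05 and 11.90. Wildtype facial neurons read 11.54, 12.12 and 11.68, and mutant facial neurons 13.18, 11.44 and 13.38. The second wildtype spinal array lay with the mutant spinal arrays and far above the other 2 of its own group, and the second mutant facial array lay below the other 2 of its group.

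Against tissue, Bcl2l11 1456005_a_at rose in wildtype facial neurons by 1.74 (SE 0.21, limma adjusted p = 0.000205), or 3.33-fold, and in mutant spinal neurons by 1.92 (SE 0.18, adjusted p = 1.53e-05), or 3.79-fold. In wildtype spinal neurons the difference was -0.44 with an SE of 0.94 (adjusted p = 0.717), with their 3 arrays on both sides of the tissue. Another probe set of the gene, 1435448_at, was also higher in facial neurons than in tissue. It read 9.05, 9.21 and 9.78 in wildtype tissue, 8.65, 9.70 and 9.88 in wildtype spinal and 10.11, 10.59 and 10.86 in wildtype facial neurons. It rose by 1.17 (SE 0.29, adjusted p = 0.00883), or 2.25-fold, in wildtype facial neurons and by 0.73 (SE 0.25, adjusted p = 0.0289), or 1.66-fold, in mutant spinal neurons, and the latter call was lost without the first or the third array of mutant tissue or of mutant spinal neurons (adjusted p between 0.0689 and 0.111). Its mutant arrays read 9.34, 9.56 and 9.13 in tissue, 10.21, 9.74 and 10.26 in spinal and 10.58, 10.50 and 11.39 in facial neurons. The wildtype spinal neurons overlapped the tissue on both probe sets, and the facial neurons of both genotypes were above it. The remaining 3 probe sets, 1435449_at, 1456006_at and 1426334_a_at, were close to background in most groups.

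**Figure D3:**
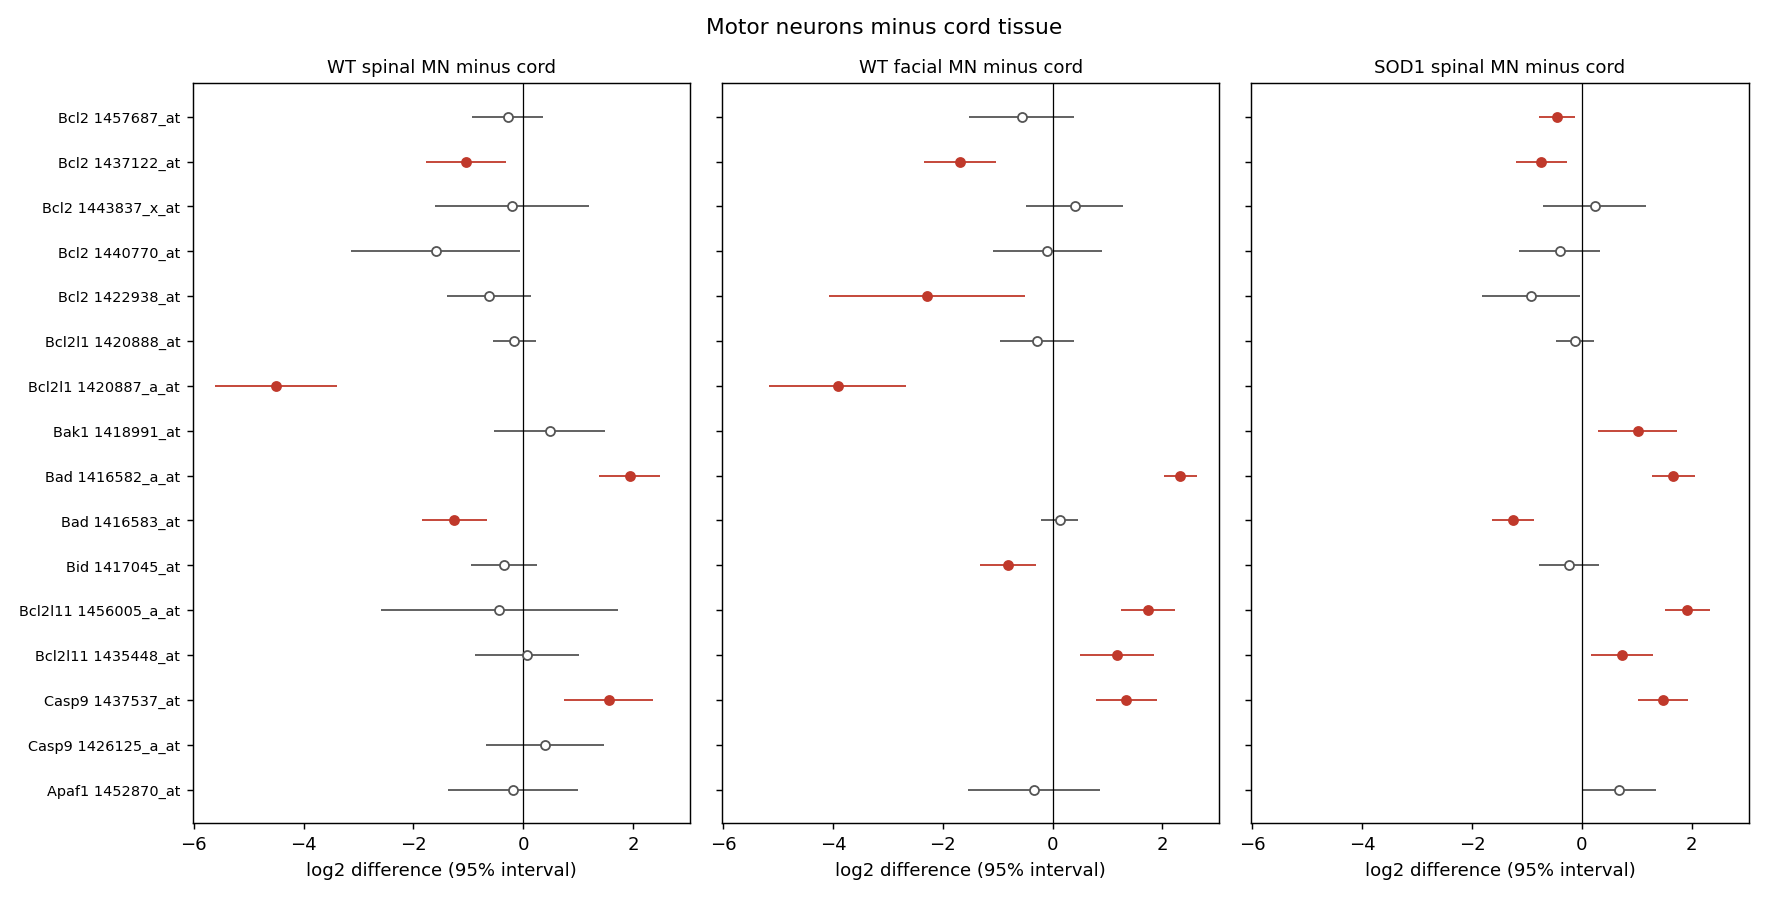
Motor neurons minus tissue for each member probe set tested, as log2 difference with its 95% interval, in wildtype spinal, wildtype facial and mutant spinal neurons; filled red points passed an adjusted p of 0.05, and an empty row was not bright enough to be tested. The brighter Bad probe set and Casp9 lie to the right in all 3 panels, and the second Bad probe set lies to the left in the panels of spinal neurons only.

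Casp9 encodes the initiator caspase of the apoptosome. Its brightest probe set, 1437537_at, read 10.11, 9.87 and 10.10 in wildtype tissue, 12.03, 11.98 and 10.74 in wildtype spinal and 11.76, 10.92 and 11.43 in wildtype facial neurons. The mutant arrays read 10.13, 10.18 and 9.94 in tissue, 11.90, 11.28 and 11.49 in spinal and 11.90, 11.40 and 10.90 in facial neurons. Each of the 12 neuron arrays was above each of the 6 tissue arrays. The probe set rose by 1.55 (SE 0.35, limma adjusted p = 0.00624), or 2.94-fold, in wildtype spinal neurons, by 1.34 (SE 0.24, adjusted p = 0.00160), or 2.53-fold, in wildtype facial neurons and by 1.47 (SE 0.20, adjusted p = 0.000185), or 2.78-fold, in mutant spinal neurons. It kept its call in these 3 comparisons without any 1 array. Spinal and facial neurons differed by 0.21 (95% interval -0.65 to 1.07) in wildtype and 0.16 (-0.46 to 0.78) in mutant samples.

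The second brightest Casp9 probe set gave no such picture. On 1426125_a_at the wildtype arrays read 8.50, 7.84 and 8.43 in tissue and 9.15, 8.76 and 8.04 in spinal neurons, a difference of 0.39 (SE 0.47, limma adjusted p = 0.504). The mutant spinal arrays of this probe set read 4.83, 5.52 and 8.07, but it was too dim there to be tested. The dimmest, 1457816_at, was below 8.10 on every array. As a description only, its group means were 5.25 in wildtype and 5.07 in mutant tissue and lay between 5.68 and 6.31 in motor neurons.

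Apaf1, the scaffold of the apoptosome, was not called between neurons and tissue in any comparison tested. Mutant facial neurons were not tested against mutant tissue. On 1452870_at wildtype tissue read 9.37, 9.12 and 9.78, wildtype spinal neurons 8.05, 9.88 and 9.77, and wildtype facial neurons 7.87, 9.64 and 9.76. Mutant tissue read 9.33, 9.48 and 9.49, mutant spinal neurons 10.27, 10.58 and 9.50, and mutant facial neurons 10.58, 10.44 and 10.26. The first array of each wildtype neuron group was low, and the mutant neuron arrays were all above the tissue of their genotype. The differences from tissue were -0.19 (SE 0.52, limma adjusted p = 0.779) in wildtype spinal, -0.33 (SE 0.52, adjusted p = 0.599) in wildtype facial and 0.68 (SE 0.30, adjusted p = 0.0690) in mutant spinal neurons. On the dimmer 1450223_at all 6 facial arrays read between 4.78 and 5.40 and all tissue arrays between 7.25 and 8.37, both mostly close to background.

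Whether the mutation moved these genes was asked in each kind of sample, over both motor neuron sites together and as the difference between those effects. No member probe set passed the threshold in any of these 6 comparisons. With limma 0 of 15 were called in tissue, 0 of 14 in spinal and 0 of 13 in facial neurons, and 0 of 14 over both sites, where 0.372%, 0.0382%, 0% and 0.467% of all probe sets were. Of the effect in spinal neurons minus that in tissue, and of that in spinal minus facial neurons, 0 of 14 were called, against 0.0238% and 0%. At an unadjusted p under 0.05 the counts of members in these 6 comparisons were 1, 1, 1, 2, 1 and 0, beside 8.84%, 8.13%, 16.5%, 15.9%, 7.86% and 8.88% of all probe sets. The arrays of both genotypes did not overlap in 3 of 15 member probe sets in tissue, 0 of 14 in spinal and 2 of 13 in facial neurons, where 14.5%, 13.6% and 22.9% of all probe sets did not. Median differences of the tested members were -0.01 in tissue, 0.17 in spinal and 0.04 in facial neurons, beside -0.01, 0.01 and 0.03 over all probe sets.

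The precision differed by kind of sample. In tissue the standard errors of the members ran from 0.10 to 0.22, so most intervals were narrow. The brighter Bcl2l1 probe set differed by 0.12 (95% interval -0.10 to 0.34) there, Bcl2 1457687_at by 0.10 (-0.13 to 0.34), Bad 1416582_a_at by 0.22 (-0.09 to 0.53) and Casp9 1437537_at by 0.05 (-0.28 to 0.39). The smallest adjusted p in tissue was that of Bcl2l1 1426191_a_at, with 10.04, 9.74 and 9.91 in wildtype and 9.26, 9.72 and 9.40 in mutant arrays, a difference of -0.44 (SE 0.17, limma adjusted p = 0.513). In motor neurons the standard errors reached 0.85 at the spinal and 0.68 at the facial site, and intervals were wide: for Apaf1 1452870_at in spinal neurons it ran from -0.31 to 2.07.

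**Figure D4:**
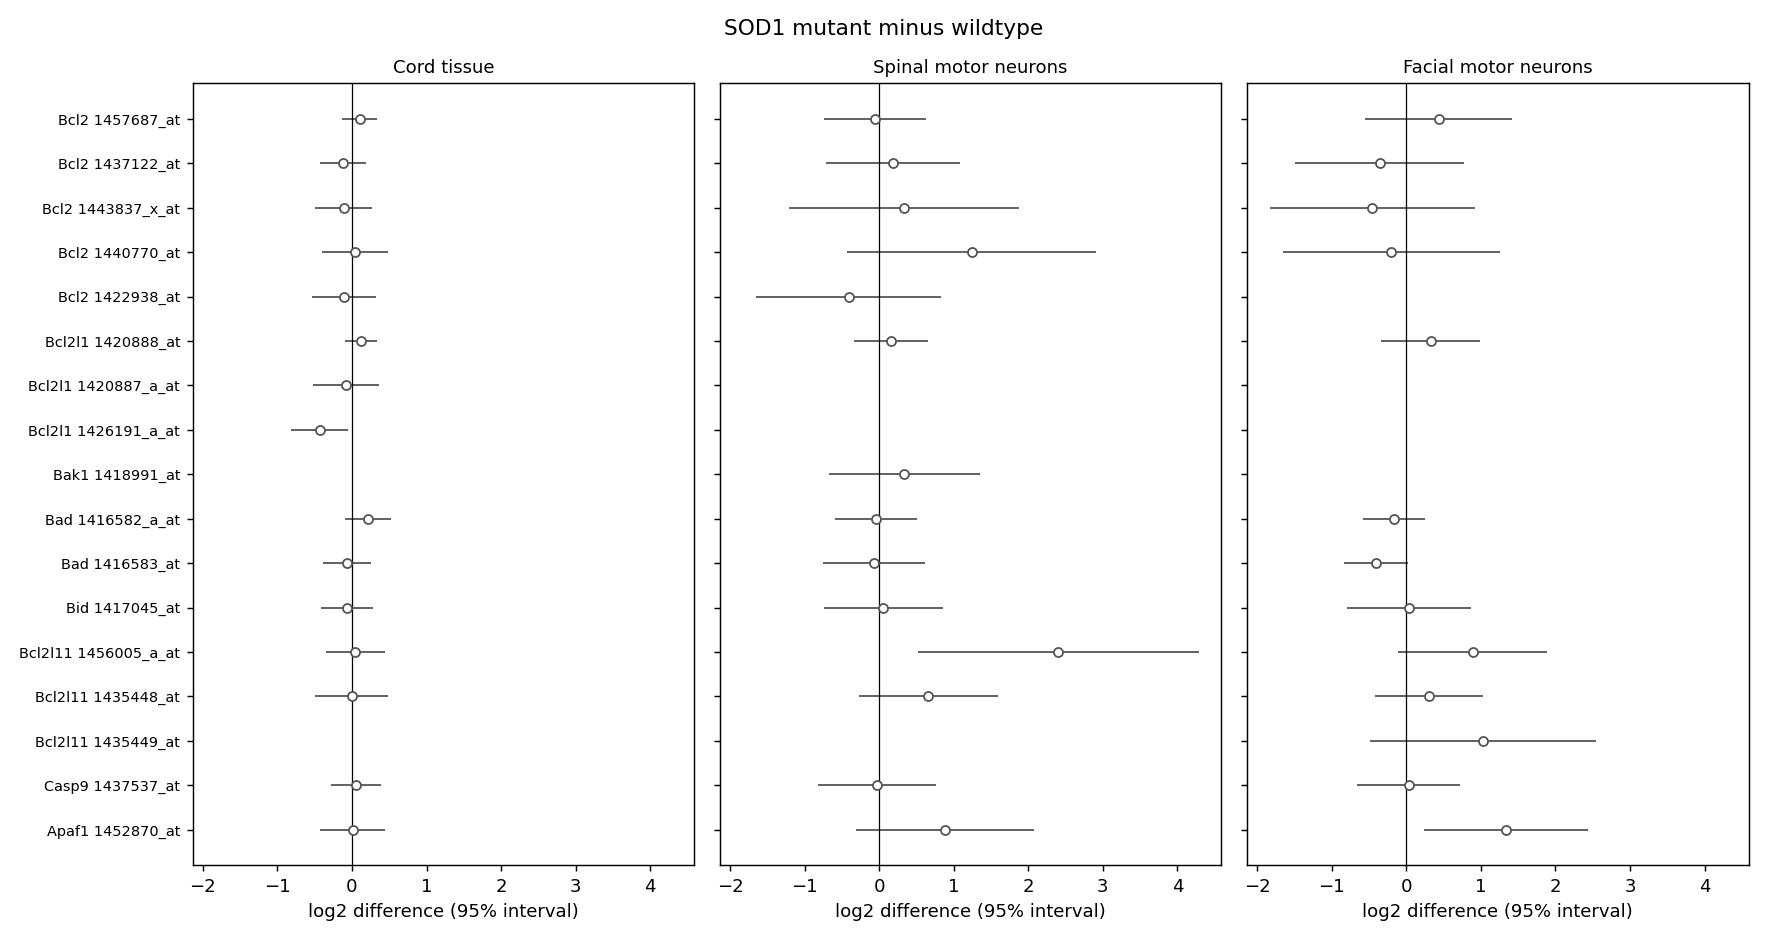
SOD1 mutant minus wildtype for each member probe set tested in tissue, spinal and facial motor neurons, as log2 difference with its 95% interval; no point passed an adjusted p of 0.05. Intervals are narrow in tissue and wide in motor neurons, where Bcl2l11 1456005_a_at at 2.40 lies farthest to the right in spinal and Apaf1 1452870_at at 1.34 in facial neurons.

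Over both motor neuron sites, Bcl2l11 1456005_a_at and Apaf1 1452870_at had the largest differences of the 14 member probe sets tested. Bcl2 1440770_at, at 1.24 in spinal neurons, exceeded Apaf1 there and was not called either. Its wildtype spinal mean of 7.67 was under 8.10, so that difference is a description only. From the arrays given above, Bcl2l11 1456005_a_at differed between mutant and wildtype by 2.40 (95% interval 0.53 to 4.28, limma adjusted p = 0.561) in spinal neurons, by 0.89 (-0.11 to 1.88, adjusted p = 0.352) in facial neurons and by 1.65 (0.47 to 2.82, adjusted p = 0.186) over both sites. Its second probe set, 1435448_at, differed by 0.66 (-0.27 to 1.59) in spinal and 0.31 (-0.41 to 1.02) in facial neurons. Single arrays decided the calls of 1456005_a_at. Without the second wildtype spinal array its difference was 3.71 (adjusted p = 0.00309) in spinal neurons, 2.30 (adjusted p = 0.00182) over both sites and 3.66 (adjusted p = 0.000299) as spinal minus tissue effect, but the number of all probe sets called then also went from 8 to 619, from 98 to 1370 and from 5 to 1118. Without the second mutant facial array the facial difference was 1.50 (adjusted p = 0.0346), while the number of all probe sets called went from 0 to 357. With the actin ratio as a covariate, the differences were 1.45 in spinal neurons, -0.51 in facial neurons and 0.46 over both sites, none of them called. At each site the ratio did not overlap between genotypes, so these fits cannot separate it well from genotype.

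Apaf1 1452870_at differed by 0.88 (95% interval -0.31 to 2.07, limma adjusted p = 0.643) in spinal neurons, by 1.34 (0.23 to 2.44, adjusted p = 0.234) in facial neurons and by 1.11 (0.27 to 1.95, adjusted p = 0.201) over both sites. In facial neurons the 3 mutant arrays were all above the 3 wildtype arrays, and in spinal neurons they overlapped. With the actin ratio as a covariate, which has the same limit here, the differences were 0.23 in spinal and 1.10 in facial neurons, neither called. Bad 1416583_at was the other member whose facial arrays did not overlap, with a difference of -0.41 (95% interval -0.84 to 0.02, adjusted p = 0.320). Microglia markers also differed along these comparisons: in mutants 7 of 12 of them rose in tissue, 2 of 11 tested in spinal neurons and 0 of 10 in facial neurons, and their part in the members' differences was not tested.

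The difference between the genotype effects of spinal and facial neurons passed the threshold for no member. It was 1.52 (SE 1.10, limma adjusted p = 0.715) for Bcl2l11 1456005_a_at, -0.45 (SE 0.79, adjusted p = 0.897) for Apaf1 and -1.83 (SE 1.05, adjusted p = 0.634) for Bcl2 1422938_at. That Bcl2 probe set had a wildtype facial mean of 7.14, under 8.10, so its value is a description only. For the inhibitor Bcl2l1 1420888_at the difference of effects was -0.17 (95% interval -0.99 to 0.66), and for Casp9 1437537_at -0.06 (-1.14 to 1.03). Such intervals do not show that the 2 sites responded alike.

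The rest of the pathway was read through 49 further genes, of which 41 had a probe set with a single symbol; each was represented by its brightest. None of them was called between genotypes, with 33 to 35 tested in each comparison. Nearest to the threshold over both motor neuron sites were Bcl2l2, an inhibitor of the family, with a difference of 0.52 (SE 0.12, limma adjusted p = 0.0702), Diablo, which frees caspases from their inhibitors, with -0.71 (SE 0.18, adjusted p = 0.0962), and Mdm2, the ligase that restrains p53, with 0.71 (SE 0.19, adjusted p = 0.116). Another Bcl2l2 probe set, 1451029_at, went the other way, with -0.50 (SE 0.30). Nearest in tissue were Tnfrsf1a, a receptor of tumour necrosis factor, with 0.59 (SE 0.13, adjusted p = 0.128), Endog, a mitochondrial nuclease, with 0.32 (SE 0.12, adjusted p = 0.444), and Mcl1, a short-lived inhibitor, with 0.21 (SE 0.08, adjusted p = 0.512). The other Endog probe set, 1421097_at, differed by -0.10 (SE 0.12). Of the other Mcl1 probe sets only 1416881_at was negative, with -0.07 (SE 0.15). In spinal neurons Diablo read 12.72, 12.13 and 12.95 in wildtype and 12.12, 11.21 and 11.59 in mutant samples, so that all mutant arrays were below all wildtype arrays by a narrow margin, with a difference of -0.96 (SE 0.30, adjusted p = 0.541). The others nearest there were Birc5, an inhibitor tied to cell division, with -1.27 (SE 0.48, adjusted p = 0.582), and Tnfrsf1a with 0.78 (SE 0.31, adjusted p = 0.589). In facial neurons they were Bcl2l2 with 0.64 (SE 0.16, adjusted p = 0.132), Mdm2 with 1.12 (SE 0.28, adjusted p = 0.138) and Birc3, an inhibitor of apoptosis downstream of tumour necrosis factor receptors, with 1.89 (SE 0.55, adjusted p = 0.166). Birc3 read 7.79, 8.34 and 6.95 in wildtype facial neurons, mostly under 8.10, so its difference is a description only. Bcl2l2 1451029_at was again opposite there, with -0.48 (SE 0.45), while Bcl2l2 1430454_x_at differed by 0.64 (SE 0.71).

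Between motor neurons and tissue many of these genes differed, as probe sets did in general. In wildtype spinal neurons 15 of 34 were higher and 5 lower, with a median difference of 0.41 beside 0.08 over all probe sets, in wildtype facial neurons 15 of 31 were higher and 7 lower (0.50 beside 0.10), and in mutant spinal neurons 15 of 33 were higher and 5 lower (0.42 beside 0.12). Of all probe sets, 28.9%, 34.4% and 34.8% were higher and 24.8%, 29% and 28.9% lower in these 3 comparisons. These shares and medians cover every probe set tested, while each pathway gene was read by its brightest probe set over all arrays. Most of those arrays are of neurons, so this choice can favour probe sets that are high in neurons. The counts and shares are therefore not like for like, and the part of this choice was not tested. Both wildtype comparisons share the tissue arrays. Among the 8 genes of cytochrome c release and the proteins that leave mitochondria with it, 6 were higher and 1 lower in wildtype spinal neurons, 6 and 1 in wildtype facial neurons, and 6 and 0 in mutant spinal neurons, beside the same shares of all probe sets; nothing particular to these genes was tested. Htra2, a mitochondrial protease, rose by 2.40 (SE 0.27), 2.24 (SE 0.15) and 2.37 (SE 0.22) in these 3 comparisons. Endog rose by 1.90 (SE 0.22), 2.18 (SE 0.11) and 1.63 (SE 0.13). Their limma adjusted p were at most 0.000190. Their other probe sets moved less: Endog 1421097_at differed by 0.19 (not called), 0.60 and 0.49, and Htra2 1460495_s_at by 0.76, 0.47 and 0.99.

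Of the executioner targets, Parp1, the DNA repair enzyme that caspases cut, rose by 2.72 (SE 0.23, limma adjusted p = 4.93e-05) in wildtype spinal, 2.43 (SE 0.14, adjusted p = 4.66e-06) in wildtype facial and 2.81 (SE 0.14, adjusted p = 4.60e-07) in mutant spinal neurons. Its other probe sets 1422502_at and 1422503_s_at did not follow, with -0.99 (SE 0.17, adjusted p = 0.00129) and -0.93 (SE 0.23, adjusted p = 0.00861) in wildtype facial neurons. The inhibitors split. Xiap, which binds caspases directly, fell by 1.86 (SE 0.17), 1.64 (SE 0.12) and 2.22 (SE 0.14), and Cflar, which blocks caspase 8, fell by 1.77 (SE 0.42), 1.48 (SE 0.28) and 1.30 (SE 0.24) in wildtype spinal, wildtype facial and mutant spinal neurons, with adjusted p of at most 0.00797. Birc2, which also restrains caspases, rose by 1.23 (SE 0.20, adjusted p = 0.00107) in wildtype spinal neurons. It also rose by 1.27 (SE 0.11, adjusted p = 3.03e-05) in wildtype facial and by 1.13 (SE 0.14, adjusted p = 9.85e-05) in mutant spinal neurons.

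Among the other BCL2 family genes, Mcl1 1437527_x_at rose by 1.37 (SE 0.18, limma adjusted p = 0.000340) in wildtype spinal neurons, and in mutant spinal neurons by 1.43 (SE 0.12, adjusted p = 7.08e-06). Its probe sets 1456243_x_at and 1456381_x_at also rose in wildtype spinal neurons, by 1.44 (SE 0.17) and 1.86 (SE 0.17). Other Mcl1 probe sets did not follow. Probe set 1448503_at was not called there, with -0.77 (SE 0.31) in wildtype and -0.62 (SE 0.28) in mutant samples. On 1416880_at the differences were -0.39 (SE 0.25, not called) in wildtype and -0.31 (SE 0.12, limma adjusted p = 0.0494, called lower) in mutant samples. On 1416881_at they were -0.36 (SE 0.25) and 0.24 (SE 0.23), neither called. Bcl2l2 1423572_at fell by 1.19 (SE 0.14), 0.77 (SE 0.10) and 0.86 (SE 0.12) in wildtype spinal, wildtype facial and mutant spinal neurons, but with arrays scaled to a common median the differences were -0.32, 0.18 and 0.08 and none was called. Its probe set 1451029_at rose in the same comparisons, by 2.01 (SE 0.33), 1.73 (SE 0.30) and 1.97 (SE 0.42). Vdac2, an outer membrane channel that binds BAK1, fell by 0.56 (SE 0.14) in wildtype spinal and 0.33 (SE 0.06) in wildtype facial neurons, but rose by 0.84 and 1.14 under the common median. Foxo3, a forkhead factor that acts on the Bcl2l11 gene, fell by 1.31 (SE 0.21), 1.63 (SE 0.19) and 1.25 (SE 0.29) in wildtype spinal, wildtype facial and mutant spinal neurons, with calls lost in the spinal comparisons under the common median (-0.47, adjusted p = 0.0595, and -0.43, adjusted p = 0.231). That scaling moves the median of all probe sets by 0.34, 0.42 and 0.37 in these comparisons and the share of higher among called probe sets from 53.7% to 69.1%, from 54.3% to 69.7% and from 54.6% to 70.2%.

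**Figure D5:**
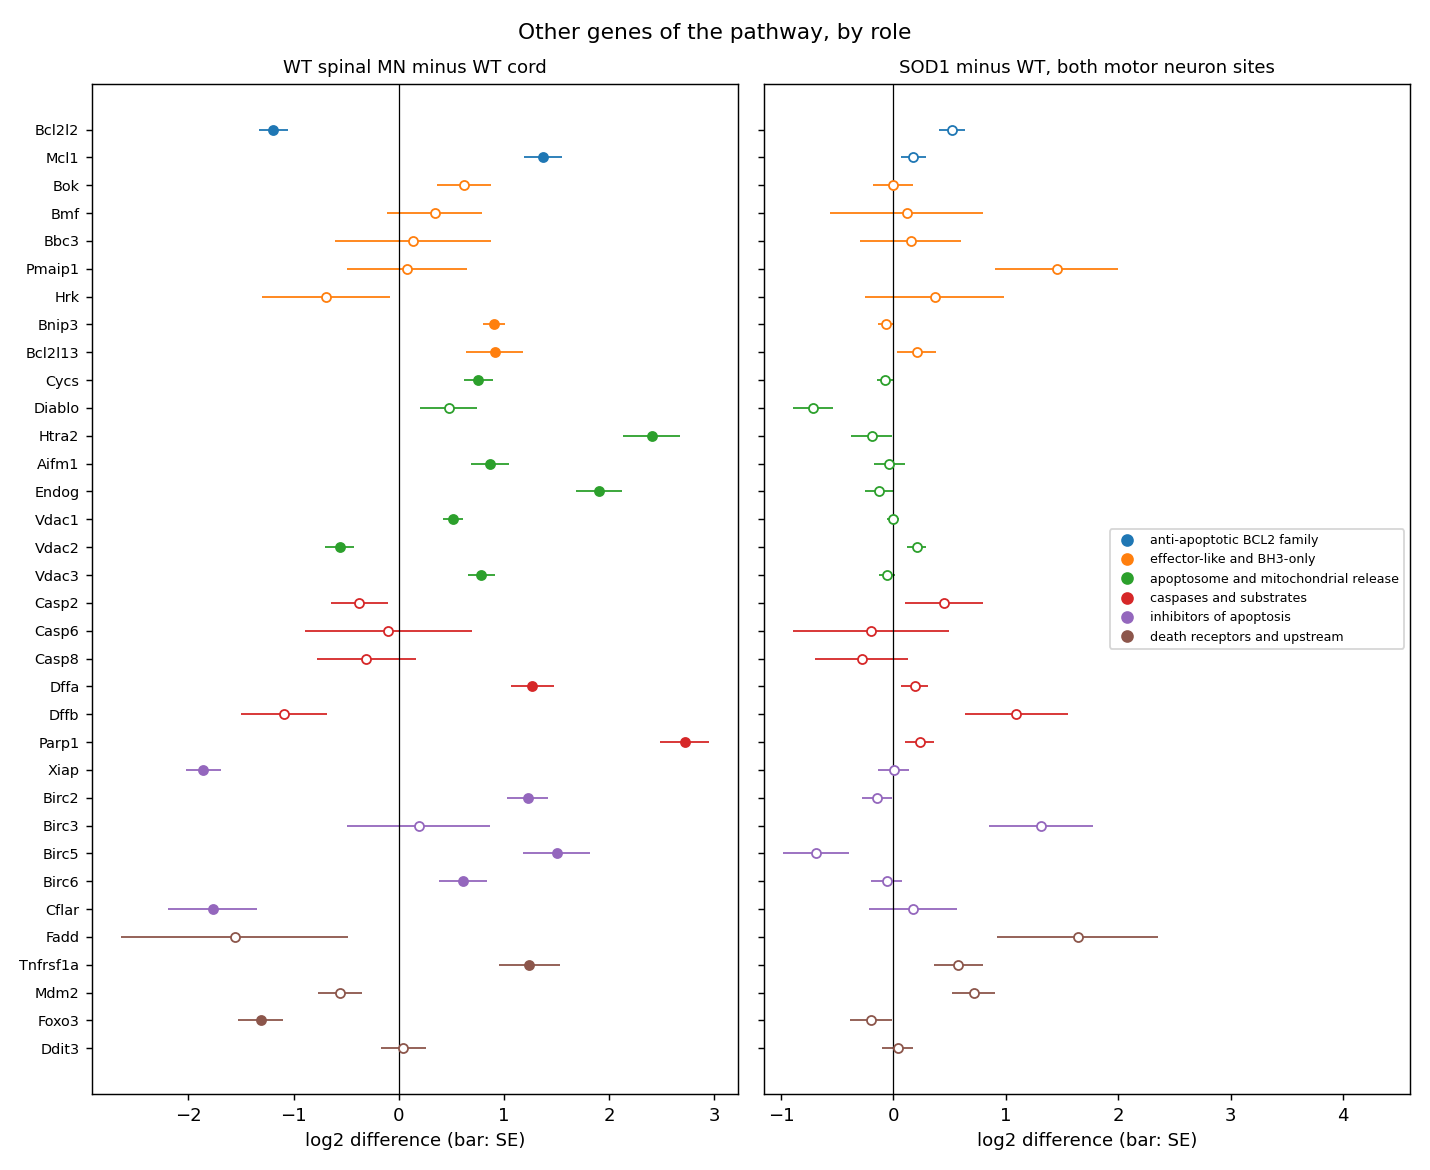
The other pathway genes by role, as log2 difference with its standard error, in wildtype spinal motor neurons minus tissue (left) and SOD1 mutant minus wildtype over both motor neuron sites (right); filled points passed an adjusted p of 0.05. Most release genes lie to the right of zero on the left panel, and no point is filled on the right one.

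Between spinal and facial neurons no other pathway gene was called by limma among 33 tested in wildtype samples, where 2.56% of all probe sets were. In mutant samples 2 of 34 were called, beside 4.39% of all: Mcl1 was higher in spinal neurons by 0.78 (limma adjusted p = 0.00953), with 15.54, 15.59 and 15.16 against 14.67, 14.56 and 14.71, and Xiap was lower, with a difference of -0.87 (adjusted p = 0.0324) and arrays of 11.92, 11.45 and 11.60 against 12.51, 12.50 and 12.56. Neither pair of groups overlapped. The Xiap call was lost in 6 of 6 repeats without 1 array (adjusted p between 0.0572 and 0.111), and the Mcl1 call without the first mutant spinal array (adjusted p = 0.0573).

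Genes whose 6 group means ran most like those of a member were sought among 12028 genes, by the root mean square difference of centred means, for the 5 members whose brightest probe set had a range of at least 1. For Casp9 these were Chordc1 (0.03), Sugp2 (0.04) and Zw10 (0.04), for Bad they were Zfp874b (0.04), Slc7a6os (0.07) and Nfu1 (0.07), and for Bak1 they were Prr3 (0.07), Tmem63b (0.11) and Hspd1 (0.11). The match was looser for Apaf1, with Zfp37 (0.16), Niban3 (0.16) and Oprk1 (0.17), and loosest for Bcl2l11, with Plscr4 (0.31), Ikbke (0.33) and Mypn (0.35). As an example, the group means of Chordc1 were 14.18 in wildtype and 14.21 in mutant tissue, 15.70 and 15.66 in spinal neurons, and 15.57 and 15.58 in facial neurons. Those of Plscr4 were 7.51 and 8.20, 6.98 and 9.09, and 9.21 and 10.17, with the lowest mean in wildtype spinal neurons, as for Bcl2l11. These likenesses are over 6 means on the same arrays and are a description. Bcl2, Bcl2l1 and Bid had ranges of 0.67, 0.40 and 0.81 and were not matched.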

How the data were processed

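The authors deposited 1 table of linear intensities for 45101 probe sets on 18 arrays. How scanner images became these intensities is not given in the sources used here. On each array the mean after trimming 2% at each end was 2500, and the median was lower in motor neurons than in tissue. The log2 of each intensity plus 16 was taken, and arrays were brought to 1 distribution by quantile normalization (R 4.3.3). The 34945 probe sets with 1 symbol in the platform annotation were used, and of these a comparison tested the brightest, down to the 40th percentile of mean level. Each comparison was fitted on its own arrays with limma 3.58.1 (lmFit and eBayes, trend = TRUE) and called at a Benjamini-Hochberg adjusted p under 0.05, after the script was tested on simulated data. Members and gene lists were chosen with earlier results of these data known. Every member probe set is described. Other pathway genes are named by smallest p, up to 6 per direction where called, otherwise 3. Alternatives were another scaling, pseudocount, filter or probe set choice, no trend, 1 fit of all arrays, a replicate block, the actin ratio as covariate, and leaving out each array.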

Additional observations from a re-analysis of the deposited data

How the results depend on the processing

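Leaving out 1 array at a time, the number of member probe sets called was 0 to 0 for genotype in tissue and for the spinal minus facial effect, 0 to 1 for genotype in spinal neurons, facial neurons, both sites and the spinal minus tissue effect, 3 to 8 for wildtype spinal neurons against tissue, 5 to 9 for wildtype facial neurons against tissue, 0 to 2 for wildtype spinal against facial neurons, 5 to 11 for mutant spinal neurons against tissue and 0 to 1 for mutant spinal against facial neurons. The 5, 8 and 8 member probe sets (4, 6 and 5 genes) called in wildtype spinal, wildtype facial and mutant spinal neurons against tissue became 3, 3 and 5 with a filter at the 60th percentile and 2, 4 and 4 with 1 probe set per gene, both of which test fewer probe sets, and the last became 4 with all 18 arrays in one fit. The 1 call between spinal and facial neurons became 0 in either genotype with 1 probe set per gene, without the trend or with the replicate block, and 3 in wildtype and 2 in mutant samples with all 18 arrays in one fit. Without a filter it was 2 in mutant samples. For all but the first 2 of these settings the cause was not tested. Whether replicate numbers pair the samples is not stated by the labels. Same-numbered arrays correlated between -0.19 and 0.26 in their deviations from group means, over 0.1 in 1 of 36 pairs. Such correlations cannot decide whether these arrays share an animal or a batch. The reversed differences were those of Bcl2l11 under the actin covariate (-0.51 in facial neurons) and, under the common median, of Vdac2 (0.84 and 1.14) and Bcl2l2 (0.18 and 0.078), and of the remaining values for named genes 1282 kept direction and call, 60 lost the call and 17 gained it.

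Counts over all probe sets moved more. With all 18 arrays in one fit they went from 78 to 2 for genotype in tissue, from 8 to 168 in spinal neurons, from 0 to 524 in facial neurons, from 98 to 809 over both sites, from 5 to 0 and from 0 to 60 for the 2 differences of effects, and from 536 to 3302 and from 920 to 1577 between sites. Without the trend they were 20, 1, 0, 27, 2, 2, 41 and 59, and with the replicate block 149, 19, 5, 67, 1, 0, 301 and 556 in that order. Without a filter the first 2 were 37 and 17, and the second was 5 under the common median, 14 with a pseudocount of 64 and 13 with the higher filter. The spinal minus tissue effect gave 1 with a pseudocount of 1 and 3 with the higher filter. The actin covariate left 0 in spinal neurons and 2 over both sites. With 1 probe set per gene the counts against tissue were 6404, 7451 and 7515. The share of higher calls under the common median went from 76.9% to 59.0% for genotype in tissue, from 80% to 100% for the spinal minus tissue effect and from 56.1% to 42.3% between mutant sites.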
